A study of Mus musculus with 2 samples.

Results

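The genes that make and store histamine and serotonin, take up serotonin and oxidise amines were followed through cells grown from the mouse aorta. The set holds 7 of the 32285 genes of the matrix, found by their symbols: Hdc, Tph1, Ddc, Slc18a2, Slc6a4, Maoa and Maob. They were described in mast cell states, macrophages and fibroblasts, with the joint detection of Hdc, Tph1 and Slc6a4 in single mast cells. The study asked about macrophage progenitors of the adult aortic wall. Per the labels, 2 C57BL/6J mice, both male and 12 weeks old, gave their aortas to a single pool, whose digested cells grew for 14 days in methylcellulose, a medium stiff enough to hold each colony in place. The harvested macrophage colonies were sorted for viability and run as 1 droplet library of single cells. No replicate library was analysed, so differences have no replicate check, no p-value is given, and every 95% interval covers counting error only.

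Histamine arises in a single reaction, the decarboxylation of histidine by histidine decarboxylase (Hdc). Serotonin needs tryptophan hydroxylase, of which Tph1 is the form used outside the brain and the rate-limiting enzyme, followed by aromatic amino acid decarboxylase (Ddc). The vesicular monoamine transporter VMAT2 (Slc18a2) packs both amines into granules, the serotonin transporter SERT (Slc6a4) recovers serotonin from outside the cell, and the mitochondrial monoamine oxidases A and B (Maoa, Maob) break amines down. Oxidase A is the form that prefers serotonin. Mast cells are tissue cells packed with granules, and in rodents they store both amines beside proteases and heparin.

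On the GRCm38 build, Hdc lies on chromosome 2 (126593667-126619299, minus strand) and Tph1 on chromosome 7 (46644641-46672537, minus strand). Ddc (11814101-11898144, minus strand) and Slc6a4 (76998603-77032340, plus strand) are both on chromosome 11, and Slc18a2 is on chromosome 19 (59260896-59296012, plus strand). Maoa (16619698-16687818, plus strand) and Maob (16709282-16817366, minus strand) are neighbours on chromosome X, 21463 bases apart and with their ends facing each other. Ddc, Slc18a2 and Slc6a4 each overlap a gene on the other strand in the GENCODE annotation (1700042O10Rik, Gm29261 and Gm12343). The use of strand in counting is not given in the sources used here, so reads of each pair cannot be told apart.

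The promoters below are shown because these genes behaved differently across mast cell states and cell types: Hdc, Slc18a2 and Slc6a4 differed between mast cell states, Tph1 hardly did, and Maoa was lower in mast cells than elsewhere. Each is the 250 bases before the start site in RefSeq, GRCm38.p6, read 5′ to 3′ on the gene's strand. Capitals mark the letters AGATAA as well as AGATAG, and also TGATAA and likewise TGATAG, on either strand, the core that GATA factors recognise.
Hdc, chr2:126618679-126618928: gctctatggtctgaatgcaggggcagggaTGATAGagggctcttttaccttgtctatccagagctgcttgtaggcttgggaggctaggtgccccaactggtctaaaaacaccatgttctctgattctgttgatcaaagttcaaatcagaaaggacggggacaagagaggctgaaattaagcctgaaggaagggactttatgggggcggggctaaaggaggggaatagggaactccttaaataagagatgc
Tph1, chr7:46672538-46672787: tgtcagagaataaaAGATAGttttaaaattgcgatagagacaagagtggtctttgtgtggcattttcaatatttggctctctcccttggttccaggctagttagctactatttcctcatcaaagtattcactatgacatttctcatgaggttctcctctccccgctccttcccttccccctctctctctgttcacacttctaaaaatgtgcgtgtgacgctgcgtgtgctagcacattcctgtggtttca
Slc18a2, chr19:59260628-59260877: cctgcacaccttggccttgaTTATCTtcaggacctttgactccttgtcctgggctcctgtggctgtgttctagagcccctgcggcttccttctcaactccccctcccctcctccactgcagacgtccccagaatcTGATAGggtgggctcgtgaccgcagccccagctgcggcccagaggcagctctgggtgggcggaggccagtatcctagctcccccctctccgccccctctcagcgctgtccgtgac
Slc6a4, chr11:76998347-76998596: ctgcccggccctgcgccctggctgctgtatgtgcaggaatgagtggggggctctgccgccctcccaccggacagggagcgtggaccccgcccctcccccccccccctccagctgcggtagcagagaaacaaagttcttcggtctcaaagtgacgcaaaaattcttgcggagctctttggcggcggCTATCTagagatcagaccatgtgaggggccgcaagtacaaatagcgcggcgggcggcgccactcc
Maoa, chrX:16619448-16619697: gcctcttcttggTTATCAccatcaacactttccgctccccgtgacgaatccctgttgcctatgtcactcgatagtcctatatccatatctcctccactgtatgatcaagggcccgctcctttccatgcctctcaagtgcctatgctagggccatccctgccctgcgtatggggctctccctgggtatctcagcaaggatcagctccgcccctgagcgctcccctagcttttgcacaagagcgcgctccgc
The matches begin 221 bases before the start in Hdc, 236 in Tph1, 230 and 115 in Slc18a2, 65 in Slc6a4 and 238 in Maoa. They thus stand in the promoters of genes high in mast cells and of Maoa, which was not. Promoters were found for 6 of the 7 genes, in 8 windows, and 5 of the 8 windows held a match, against 26.5% of 32851 mouse promoters of that length. No match was seen in either window of Ddc or in the other promoter of Tph1. The cyclic AMP element TGACGTCA, held by 1.55% of all promoters, and the M-box letters TCATGTG or TCACGTG of the mast cell factor Mitf, held by 6.28%, were not in any of the 8 windows searched. A match of letters describes the sequence and is no evidence of binding.

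The matrix held 34813 barcodes, of which 30755 were kept after filters and removal of called doublets, with a median of 12728 unique molecular identifiers (UMIs, each marking 1 captured RNA molecule) and 3464 genes. Clusters were made without the amine genes, and were named by markers. Mast cell-like clusters held 22186 cells, fibroblast-like clusters 5511 and a macrophage-like cluster 2743, with median depths of 11440, 31035 and 8820 UMIs. In mast cell-like cells all 8 mast cell markers (proteases, IgE receptor chains and Kit) reached 20 CPM (counts of a gene scaled to a fixed total of gene UMIs), as did 3 of 5 basophil markers (Cd200r3 478 CPM, Il4 126 CPM, Prss34 38.3 CPM), while Mcpt8, which defines basophils, was at 11.5 CPM. Of 6 platelet markers 2 reached 20 CPM, Itga2b, which mast cells share with platelets, at 135 CPM and Pf4 at 23.7 CPM. The platelet gene Ppbp had 1 UMI in all mast cell-like cells. In this class 4 of 6 fibroblast, 2 of 4 erythroid (Hbb-bs 89.5 CPM), 1 of 7 endothelial (Pecam1 87.7 CPM) and 1 of 4 monocyte markers also reached 20 CPM. The macrophage-like cells had 8 of 8 macrophage markers at 20 CPM or more, and also 7 of 8 mast cell markers, summing to 21588 CPM against 61270 CPM in mast cell-like cells. Markers of other types reached 20 CPM in them too, among them 3 of 4 monocyte, 3 of 5 neutrophil and 4 of 6 fibroblast markers. Pf4 was at 2275 CPM and Hbb-bs at 992 CPM in these macrophage-like cells. Fibroblast-like cells had 6 of 6 fibroblast markers and 7 of 8 mast cell markers, summing to 9260 CPM. The labels name male mice, yet Xist, which is transcribed from the inactive X chromosome, was seen without Y-linked UMIs in 53.3% of the mast cell-like class, in 39.1% of macrophage-like cells and in 52.7% of fibroblast-like ones. The matrix also carried 3 tags named Cafum, Matrigel and Macrophages, whose meaning the labels do not give.

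Mast cell-like cells carried the whole route for both amines. Hdc was at 851 CPM in them (95% Poisson interval 848–854), Tph1 at 2680 CPM (2674–2685), Ddc at 157 CPM (155–158), Slc18a2 at 421 CPM (418–423) and Slc6a4 at 69.6 CPM (68.7–70.6). Of the oxidases, Maob was at 354 CPM (352–356) and Maoa at 4.02 CPM (3.79–4.25). In macrophage-like cells Hdc was at 327 CPM, Tph1 at 944 CPM, Ddc at 61.5 CPM, Slc18a2 at 187 CPM, Slc6a4 at 28.9 CPM and Maob at 133 CPM, while Maoa was at 31.5 CPM. In fibroblast-like cells the levels were 136 CPM for Hdc, 393 CPM for Tph1, 25.6 CPM for Ddc, 72.5 CPM for Slc18a2, 12.1 CPM for Slc6a4, 65.0 CPM for Maob and 27.1 CPM for Maoa. The order mast cell, macrophage, fibroblast thus held for 6 genes, with intervals that do not overlap between neighbours, and Maoa ran against it.

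Called at a 2-fold difference, 6 of 7 amine genes were higher in mast cell-like than in macrophage-like cells and 1, Maoa, was lower. Of the 6662 genes with at least 20 CPM in either class, 9.65% were higher and 18.7% lower by this rule. Against fibroblast-like cells the same 6 were higher and Maoa was lower, where 16.8% of 7134 genes were higher and 21.8% lower. The median log2 ratio of the 7 genes was 1.35 against macrophage-like and 2.54 against fibroblast-like cells, beside 0.17 and 0.07 over all genes tested. Maoa was 7.83-fold higher in macrophage-like (7.18–8.54) and 6.74-fold higher in fibroblast-like cells (6.33–7.18) than in mast cell-like cells. With called doublets kept, 2 of the 7 were 2-fold higher in mast cell-like than in macrophage-like cells. The share of all genes in that setting is not given here, so this count has no background beside it. At 4-fold 0 of the 7 were higher than in macrophage-like cells, where 0.03% of all genes were, and 6 were higher than in fibroblast-like cells, where 6.92% were.

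**Figure D1:**
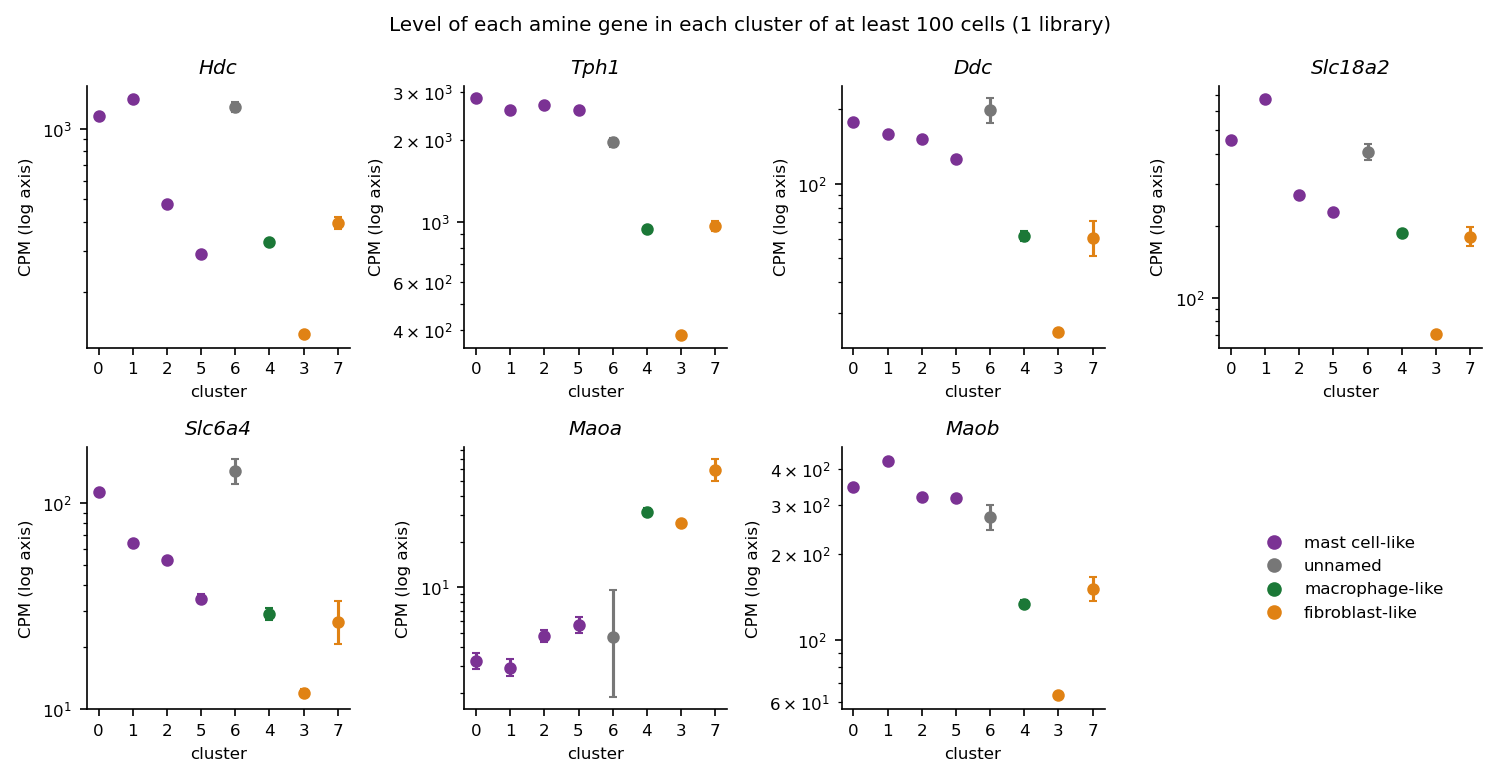
Level of each amine gene (CPM of summed counts, log axis, a different range for each gene) in each cluster of at least 100 cells. Points are clusters of 1 library and bars are 95% Poisson intervals, which cover counting error only. Hdc spans 1345 CPM in cluster 1 to 291 CPM in cluster 5 within the mast cell-like clusters, Tph1 stays between 2566 and 2839 CPM, and Maoa is highest in the macrophage-like and fibroblast-like clusters.

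Detection per cell followed the same division. Each cell was thinned to 6000 UMIs, which kept 20252 mast cell-like cells, 2084 macrophage-like cells and 5291 fibroblast-like ones, and left out 1934, 659 and 220 shallower cells. At this depth Tph1 had a UMI in 99.98% of mast cell-like cells, with 9, 15 and 25 UMIs at the 10th, 50th and 90th percentile. Hdc was seen in 86.0% (exact binomial 95% interval 85.5–86.5), Slc18a2 in 86.7% (86.3–87.2), Maob in 84.7% (84.2–85.2), Ddc in 59.0% (58.3–59.7), Slc6a4 in 32.9% (32.3–33.6) and Maoa in 2.01% (1.82–2.21). Without thinning the shares were 94.2% for Hdc, 96.3% for Slc18a2, 94.0% for Maob, 78.4% for Ddc, 50.9% for Slc6a4 and 4.61% for Maoa, at 99.97% for Tph1. In thinned macrophage-like cells Tph1 was seen in 72.2%, Hdc in 44.0%, Slc6a4 in 12.0% and Maoa in 14.7% (13.2–16.3), and in thinned fibroblast-like cells Maoa was seen in 14.5% (13.6–15.5).

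The amine genes were next read against mast cell RNA found in other cells. In macrophage-like cells the 8 mast cell markers stood at 0.319 to 0.387 of their level in mast cell-like cells, with a median of 0.356. Tph1 (0.352), Maob (0.377) and Hdc (0.384) lay inside that range. Ddc (0.392), Slc6a4 (0.415, interval 0.387–0.444) and Slc18a2 (0.445, interval 0.433–0.457) lay above it, the interval of Ddc (0.374–0.411) reaching into the range and that of Slc6a4 meeting its upper end. Over the main and 9 alternative settings Slc18a2 lay above the range in 10 of 10, Ddc and Slc6a4 in 8 each and Hdc and Maob in 1 each, and Tph1 in none. In fibroblast-like cells the markers spanned 0.141 to 0.181. There Tph1 (0.147), Hdc (0.160), Ddc (0.163), Slc18a2 (0.172) and Slc6a4 (0.174) were inside and Maob (0.184, interval 0.180–0.187) was slightly above, as it was in 9 of 10 settings. Maoa was above the range in both classes in 10 of 10.

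**Figure D2:**
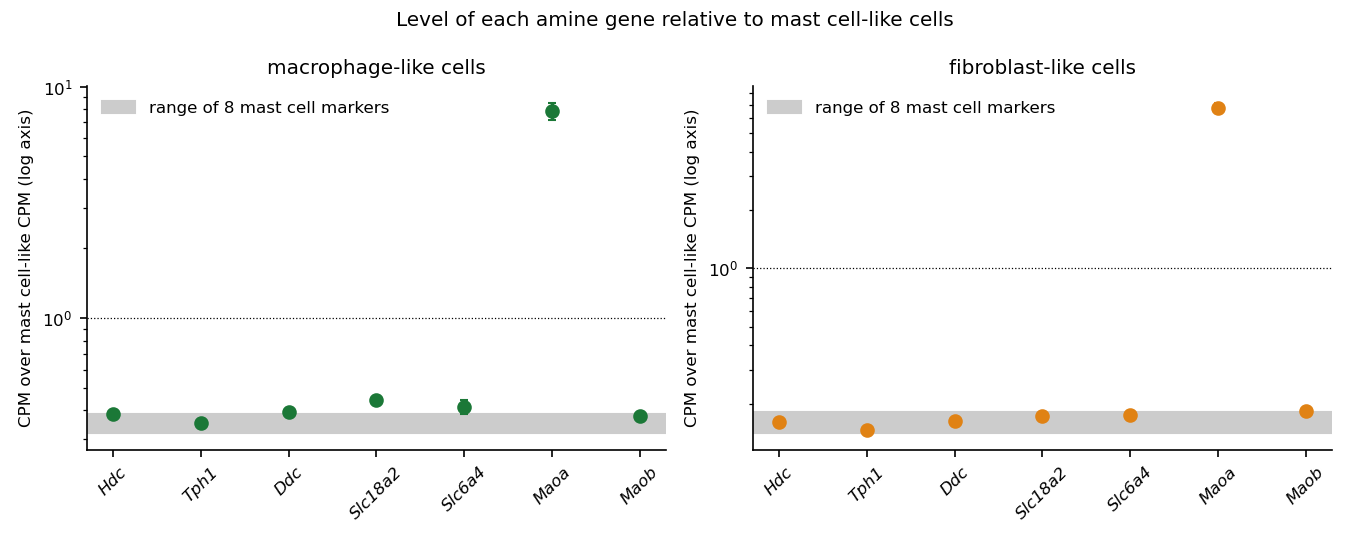
Level of each amine gene in macrophage-like (left) and fibroblast-like cells (right) over its level in mast cell-like cells (ratio of CPM, log axis, 95% counting intervals), with the range of the 8 mast cell markers in grey and a dotted line at 1. Maoa stands at 7.83 and 6.74, and the other 6 genes lie in or near the marker range of 0.319 to 0.387 and 0.141 to 0.181.

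This mast cell RNA was spread unevenly over the macrophage-like cells. They were ordered by their summed UMIs of the 8 markers, a split added after the data were seen, and cut into 4 bins of 521 cells. The marker UMIs averaged 10.9, 18.0, 133 and 286 per cell in the 4 bins, against 389 in mast cell-like cells. Hdc averaged 0.132, 0.196, 2.52 and 4.27 UMIs and Tph1 0.597, 0.774, 6.69 and 10.8 UMIs in the same order. Both genes were thus low in the lower bins and rose in the highest, where they stayed below their averages in mast cell-like cells, 5.74 and 16.2 UMIs. Slc6a4 averaged 0.015, 0.027, 0.242 and 0.345 UMIs. Maoa went the other way, with 0.253, 0.278, 0.173 and 0.090 UMIs. Fibroblast-like cells showed the same 2 patterns: Hdc averaged 0.077 UMIs in their lowest and 2.55 in their highest bin, and Maoa 0.191 and 0.101.

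Per 100 marker UMIs, Slc18a2 stood at 0.706 in mast cell-like cells and at 1.58, 1.01, 1.10 and 0.775 from the lowest to the highest bin of macrophage-like cells. Slc18a2 UMIs were few in the lower bins, 0.173 and 0.182 per cell. Slc18a2 was not alone in the lowest bin of macrophage-like cells. Tph1 (5.47), Maob (0.791), Ddc (0.281) and Slc6a4 (0.141) also exceeded their mast cell-like values there, 4.15, 0.554, 0.244 and 0.121. Mast cell-like cells cut the same way had 6.10, 0.767, 0.344 and 0.130 for these genes in their own lowest bin, and 0.826 for Slc18a2. Against that bin, Tph1 and Ddc of the lowest macrophage-like bin were lower, Maob and Slc6a4 slightly higher, and Slc18a2 higher. In fibroblast-like cells Maob had 1.80 UMIs per 100 marker UMIs in the lowest bin, 1.17 in the next and 0.580 in the highest, against 0.554 in mast cell-like cells. The rise was not particular to Maob. Slc18a2 (1.88), Tph1 (6.22), Ddc (0.728) and Slc6a4 (0.192) also exceeded their mast cell-like values in the lowest fibroblast-like bin, while Hdc did not. These genes and Maob also exceeded their values in the lowest bin of mast cell-like cells, Tph1 only slightly. The bins were set by the marker UMIs that these ratios divide by. Hdc, on the same scale, stood at 1.21, 1.09, 1.90 and 1.495 in the bins of macrophage-like cells and at 1.48 in mast cell-like cells, so it was not raised in the lower bins.

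Tags gave a similar split. In the 1948 macrophage-like cells with the Macrophages tag alone, Hdc was at 166 CPM, Tph1 at 486 CPM, Slc18a2 at 105 CPM and the mast cell protease Cma1 at 3708 CPM, while Maoa was at 36.2 CPM. The 26.4% of macrophage-like cells with more than 1 tag are not in these values. In the 2633 fibroblast-like cells with the Matrigel tag alone Tph1 was at 165 CPM, Cma1 at 1420 CPM, Maoa at 31.3 CPM and Maob at 31.4 CPM. In the 377 fibroblast-like cells with the Cafum tag alone Tph1 was at 1003 CPM, Cma1 at 8413 CPM, Maoa at 19.9 CPM and Maob at 151 CPM. Restricted to cells with exactly 1 tag, the mast cell over macrophage ratio was 5.36 in place of 2.84 for Tph1, and between 3.87 (Slc18a2) and 5.48 (Maob) for the 6 genes higher in mast cell-like cells. The part of free or doublet RNA in the macrophage-like and fibroblast-like values was not tested further.

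Within the mast cell-like class the route did not vary as a whole. The class had 4 clusters. Cluster 0 (7593 cells) was led by Ifitm1, Atp8a2, Slc6a4 and Cd274, and cluster 1 (6894 cells) by Gm4847, Mrgprb1, Cacnb4 and Mrgprb2, receptors and genes of connective tissue mast cells among them. Cluster 2 (5832 cells) was led by Ctsg, with 43.2% of its thinned cells in S or G2/M phase, and cluster 5 (1867 cells) by histone genes, with 99.7% in these phases. Slc6a4 was kept out of the clustering and is named here for its ratio to the other clusters.

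Hdc, the histamine enzyme, was at 1128 CPM in cluster 0, 1345 CPM in cluster 1, 475 CPM in cluster 2 and 291 CPM in cluster 5. The highest was 4.62-fold the lowest (4.54–4.71), a spread at the 94.9th percentile of the 6390 genes tested. With called doublets kept it was 2.87. Hdc UMIs were found in 91.2%, 95.9%, 75.9% and 65.6% of thinned cells in that order.

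Tph1, the serotonin enzyme, was at 2839 CPM in cluster 0, 2566 CPM in cluster 1, 2684 CPM in cluster 2 and 2579 CPM in cluster 5. The ratio of highest to lowest was 1.11 (1.10–1.11), at the 3.21th percentile, among the most even genes of these cells. Its partner Ddc, which acts on the product of Tph1, went from 178 CPM in cluster 0 to 126 CPM in cluster 5, with 159 and 152 CPM in clusters 1 and 2 (ratio 1.41).

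Slc18a2, the granule transporter, was at 457, 678, 269 and 229 CPM in clusters 0, 1, 2 and 5, a ratio of 2.96 (2.89–3.02). Slc6a4, the serotonin transporter, was at 114, 63.9, 53.0 and 34.3 CPM, a ratio of 3.32 (3.15–3.51). The 2 transporters thus peaked in different clusters, Slc18a2 with Hdc in cluster 1 and Slc6a4 in cluster 0. Maob was at 346, 429, 318 and 316 CPM (ratio 1.36) and Maoa at 3.27, 2.94, 4.78 and 5.61 CPM (ratio 1.91).

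Hdc, Slc18a2 and Slc6a4 were past 2-fold between mast cell-like clusters, 3 of 7 genes, where 22.1% of the genes tested passed and the median ratio was 1.501. The 8 mast cell markers ran from 1.18 for Ms4a2 to 2.26 for Tpsb2, below all 3. Maoa, at most 5.61 CPM in these clusters, lay below the 20 CPM that the tested genes reached. Its ratio also exceeded 2-fold without cell filters and with at most 5% mitochondrial UMIs. The unnamed cluster 6 (229 cells, median 3942 UMIs) passed all 8 mast cell markers but was too shallow to be named, and 43.7% of it carried the Matrigel tag. It had Hdc at 1236 CPM, Tph1 at 1955 CPM and Slc6a4 at 143 CPM (125–164).

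A finer clustering split the mast cell-like cells into 9 clusters. Slc6a4 was highest, at 155 CPM, in the cluster led by Nlgn1, Satb1 and Ctse, was at 112 CPM in the one led by Gm20186, Csrp3 and Ypel3, and was lowest, at 33.7 CPM, in the one led by histone genes, a ratio of 4.61. Hdc ranged from 1480 CPM in a cluster led by Gm4847, Cacnb4 and Adamtsl3 to 269 CPM in one led by the mitotic genes Cdkn3, Cenpa and Ube2c, a ratio of 5.50. Slc18a2 had its highest level, 747 CPM, in the same cluster as Hdc. Tph1 still varied only 1.15-fold.

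Sex-linked transcripts moved with these clusters. Xist without Y-linked UMIs was found in 83.3% of the cells of cluster 1, but in 38.0%, 40.9% and 43.6% of those of clusters 0, 2 and 5. In cluster 1 the 109 cells with Y-linked UMIs and no Xist had Slc6a4 at 122 CPM (102–146), against 61.3 CPM (59.4–63.2) in its 5746 cells with Xist alone. The former lay near the 129 CPM of the cells of cluster 0 with Y-linked UMIs and no Xist. The cells of cluster 0 with Xist alone were at 111 CPM (107–115), above those of cluster 1 with Xist alone. The level of the 109 cells rests on 126 Slc6a4 UMIs. Cells of cluster 1 with both or neither kind of transcript were not examined apart. The part of the sex-linked difference in the cluster levels was not tested. Hdc was at 1105 CPM and 1354 CPM, and Slc18a2 at 637 CPM and 687 CPM, in the same 2 sets of cluster 1. In cells with Y-linked UMIs and no Xist the ratio of highest to lowest cluster was 4.25 for Hdc, 3.08 for Slc18a2 and 3.34 for Slc6a4. Their Hdc was at 1138 CPM (1121–1154) in cluster 0 and 1105 CPM (1042–1171) in cluster 1, so it did not peak in cluster 1. Intervals of clusters 0 and 1 overlapped for Hdc and Slc6a4 in these cells, while Slc18a2 was higher in cluster 1 (637 against 460 CPM).

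**Figure D3:**
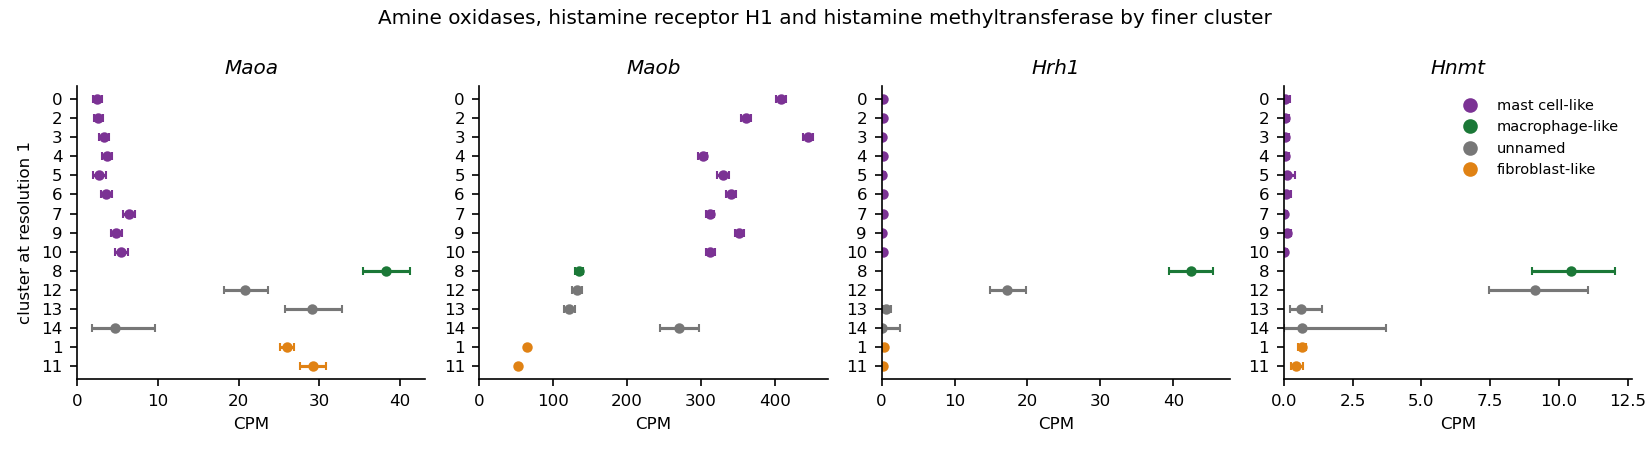
Levels (CPM, linear axes from 0, 95% Poisson intervals) of the oxidases Maoa and Maob, the histamine receptor Hrh1 and the histamine-inactivating enzyme Hnmt in each cluster of at least 100 cells at finer resolution. Maob is above 300 CPM in every mast cell-like cluster, and Maoa, Hrh1 and Hnmt are highest in the macrophage-like cluster 8, with 38.3, 42.4 and 10.5 CPM.

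The oxidases differed between cell types in opposite directions. Maob, which mast cell-like cells carried, stayed between 302 and 445 CPM over their 9 finer clusters. Maoa was at 2.50 to 6.36 CPM there, 2.54-fold from lowest to highest, and highest in the cluster led by mitotic genes. In the 4 main clusters its ratio of 1.91 was 2.30 without cell filters, 2.48 with at most 5% mitochondrial UMIs and 6.15 in cells with Y-linked UMIs and no Xist, each at a few CPM. The 6.15 has 1 Maoa UMI on its lower side, in 109 cells of cluster 1 (0.97 CPM, 0.025–5.41). Outside the mast cell-like clusters Maoa was at 38.3 CPM (35.5–41.2) in the macrophage-like cluster led by Ednrb, Lyve1 and F13a1. It was at 20.8 CPM (18.2–23.6) in an unnamed cluster led by S100a9, S100a8 and Il1b that passed 7 of 8 macrophage markers, and at 26.0 and 29.2 CPM in the fibroblast-like clusters. The small fibroblast-like cluster 7 of the main clustering (168 cells) had the highest Maoa, 59.6 CPM (50.6–69.7), with Tph1 at 965 CPM beside it.

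The other genes of amine handling were taken from a list of 56. Of these, 12 reached 20 CPM in mast cell-like or macrophage-like cells. Among them 2 were past 2-fold higher and 1 lower in mast cell-like cells, beside 9.65% and 18.7% of all genes tested. Against fibroblast-like cells 14 were tested, of which 8 were higher and 2 lower, beside 16.8% and 21.8% of all genes. At 4-fold 0 and 2 of the list were higher, beside 0.03% and 6.92% of all genes. With the minimum set at 5 CPM, 5 of 21 were lower in mast cell-like than macrophage-like cells, beside 17.9% of all genes. The list's median log2 ratio was 0.38 and 1.10, beside 0.17 and 0.07 over all genes. Of those 8, 4 serve tetrahydrobiopterin, the cofactor that Tph1 needs, 1 makes pyridoxal phosphate, the cofactor of Hdc and Ddc, and 2 carry amino acids.

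Gch1, the first enzyme of tetrahydrobiopterin synthesis, stood at 196, 138 and 64.4 CPM in the mast cell-like, the macrophage-like and the fibroblast-like class. Its regulator Gchfr was at 67.5, 22.6 and 11.4 CPM, and Pcbd1, which recycles the cofactor, at 27.0, 10.3 and 9.89 CPM, both past 2-fold against each class. Pts, the next enzyme of the synthesis, was at 57.8, 43.4 and 21.7 CPM, and Pdxk, which makes pyridoxal phosphate, at 59.0, 65.3 and 25.2 CPM. The amino acid transporter genes Slc3a2 (211, 190 and 99.2 CPM) and Slc7a8 (201, 132 and 34.6 CPM) and the aldehyde dehydrogenase gene Aldh9a1 (41.4, 47.7 and 19.3 CPM) were past 2-fold against fibroblast-like cells and not against macrophage-like cells.

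Some genes that receive or remove the amines were higher outside the mast cell-like class. Hrh1, which encodes the histamine receptor H1, was at 32.6 CPM (30.6–34.7) in macrophage-like cells, where the mast cell-like class had 0.152 CPM and the fibroblast-like class 0.322 CPM. It was at 42.4 CPM in the finer macrophage cluster led by Ednrb and Lyve1 and at 17.2 CPM in the S100a9 cluster, the same order as Maoa. Hnmt, which inactivates histamine by methylation, was at 0.053 CPM, 9.95 CPM (8.85–11.2) and 0.605 CPM in the 3 classes, below the 20 CPM needed for a call. Aoc1, the other histamine-degrading enzyme, had 1, 0 and 10 UMIs in all, so that 0 of 2084 thinned macrophage-like cells had one, which allows a share of up to 0.144% when taken as 3 cells and 0.177% by the exact binomial interval. Aldh7a1 (3.49, 19.8 and 34.6 CPM) and Tgm2, which can couple serotonin to proteins (1.07, 8.07 and 34.9 CPM), were past 2-fold higher in fibroblast-like than in mast cell-like cells. The histamine receptor genes Hrh4 (9.02, 11.4 and 1.76 CPM) and Hrh2 (6.60, 3.33 and 0.955 CPM) stayed below the level needed for a call, and were named, like Htr2a, after their values were seen.

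Other routes were close to empty. The brain form Tph2 was at 0.046 CPM in mast cell-like cells, and the catecholamine genes Th, Dbh and Pnmt had 0 UMIs there, and 0 of 20252 thinned cells allows a share with a UMI of up to 0.0148% when taken as 3 cells and 0.0182% by the exact binomial interval. Slc18a1, the other vesicular monoamine transporter, was at 0.225 CPM in the mast cell-like class, against 1.61 CPM in macrophage-like cells. The serotonin receptor gene Htr2a was at 4.76 CPM in fibroblast-like cells, and no serotonin receptor gene reached 20 CPM in any of the 3 classes.

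Dividing mast cell-like cells had less Hdc, Slc6a4 and Slc18a2 than the others. Of 20252 thinned mast cell-like cells, 4758 (23.5%) scored in S or G2/M phase. Hdc was at 419 CPM in them and 1122 CPM in the other cells, a ratio of 0.373 (0.366–0.380). Slc6a4 had a ratio of 0.513 (0.484–0.544) and Slc18a2 one of 0.556 (0.543–0.569). Ddc (0.836), Maob (0.904) and Tph1 (0.956) were closer to 1, and Maoa was at 1.70 (1.38–2.07), from 5.25 CPM against 3.10 CPM. Of the 7 genes 1, Hdc, was past 2-fold lower, as were 2% of the 6008 genes tested, while 6.31% were 2-fold higher. Maoa lay below the 20 CPM that the tested genes reached. Among mast cell markers, Tpsb2 had a ratio of 0.572, Kit one of 0.658 and Mcpt4 one of 1.04.

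Within clusters the difference was smaller. Hdc had ratios of 0.735 (0.691–0.781) in cluster 0, 0.813 (0.773–0.855) in cluster 1 and 0.648 (0.628–0.668) in cluster 2, from 204, 242 and 2458 cells in S or G2/M. Slc6a4 had ratios of 0.734, 0.648 and 0.792, with intervals below 1 in each. Slc18a2 had ratios of 1.03 (0.946–1.12), 0.883 (0.825–0.945) and 1.03 (0.993–1.08), below 1 beyond counting error in cluster 1 alone of these 3. Tph1 had ratios of 1.03, 1.03 and 0.924.

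**Figure D4:**
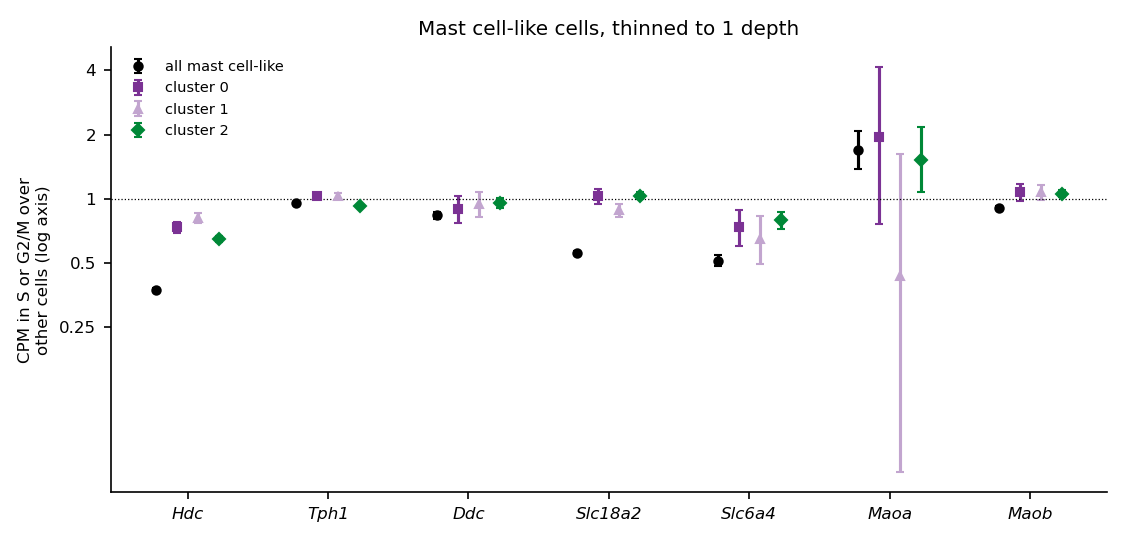
Ratio of CPM in S or G2/M phase over the other mast cell-like cells (log axis, 95% counting intervals) for each amine gene, over all 20252 thinned cells and within clusters 0, 1 and 2. Hdc is at 0.373 over all cells and lies at 0.648 to 0.813 within clusters, Slc18a2 lies at 0.883 to 1.03 within clusters, and Tph1 stays near 1.

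Hdc also varied more from cell to cell than most genes of its level. Over thinned mast cell-like cells the variance of Hdc UMIs was 5.65 times the mean of 5.74 UMIs. Of the 105 genes whose mean lay within 1.5-fold, 2 had a higher variance over mean, and their median was 1.61. This held inside clusters: the ratio was 5.22 in cluster 0, 4.60 in cluster 1, 4.103 in cluster 2 and 3.12 in cluster 5. There 3 of 80, 5 of 86, 2 of 206 and 3 of 414 genes of like mean were higher. In cluster 1, where Hdc was highest, cells had 1, 7 and 16 Hdc UMIs at the 10th, 50th and 90th percentile. Tph1 had a ratio of 2.61 at a mean of 16.2 UMIs, with 19 of 69 genes of like mean higher and a median of 2.03. Slc18a2 had a ratio of 1.86 against a median of 1.33 (47 of 264 genes higher) and Slc6a4 one of 1.43 against 1.10 (59 of 955 higher), so both transporters also stood above most genes of like mean. Ddc (1.15) and Maob (1.29) were close to the medians of genes of like mean, 1.14 and 1.28.

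Joint detection of Hdc, Tph1 and Slc6a4 was the common case for the enzymes and a minority for the transporter. Of 20252 thinned mast cell-like cells, 5981 or 29.5% (28.9–30.2) had UMIs of all 3 genes. Hdc and Tph1 without Slc6a4 were found in 56.4% (55.8–57.1), Tph1 alone in 10.6% and Tph1 with Slc6a4 but no Hdc in 3.39% (3.15–3.65). Cells without a Tph1 UMI numbered 4. Since nearly every cell had Tph1, its joint detection with any gene could not depart from the product of the shares: the ratio of observed to expected was 1.00 with Hdc and with Slc6a4, and could reach 1.00 at most.

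Hdc and Slc6a4 were found together in 5981 cells, 1.04 times the 5734 given by the product of their shares (1.02–1.07), where 1.16 was the most possible. With the expectation made inside each cluster the ratio was 1.02 (1.00–1.04), and inside clusters 0, 1, 2 and 5 it was 1.02, 1.01, 1.05 and 1.07, each with an interval that holds 1. Ddc and Slc6a4 had a ratio of 1.04 (1.01–1.07), 1.03 within clusters, and Slc18a2 and Slc6a4 one of 1.03 (1.01–1.05), 1.01 within clusters. Every pair that includes Maoa had an interval that holds 1. The triple made up 42.4% of cluster 0, 28.5% of cluster 1, 21.4% of cluster 2 and 12.6% of cluster 5, in the order of the clusters' Slc6a4 levels.

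In the other classes the same genes came together far above the product of their shares. In macrophage-like cells Hdc and Slc6a4 had a ratio of 1.82 (1.58–2.07) and the triple one of 2.48 (2.16–2.83). In fibroblast-like cells these were 2.24 (1.98–2.53) and 3.78 (3.33–4.27). The uneven share of mast cell marker UMIs given above moved with the same cells, and its part in these ratios was not tested.

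Cells with a Slc6a4 UMI (6669) were set against those without (13583). Hdc was at 1101 CPM in the former and 886 CPM in the latter, a ratio of 1.24 (1.23–1.26), and 1.14 when clusters were matched. Ddc had a ratio of 1.12 (1.08–1.15), Slc18a2 one of 1.08 (1.06–1.10), Tph1 one of 1.05 (1.04–1.05) and Maob one of 1.01 (0.993–1.03). Without thinning the Slc18a2 ratio turned to 0.967 and that of Hdc was 1.09. Of 3055 genes compared, 37 had a higher ratio than Hdc and 713 a higher one than Slc18a2, and the median was 1.01. The highest were Bach2 (1.48), Dnah14 (1.44), Cd274 (1.43), Atp8a2 (1.39) and Ednra (1.38), and the lowest were the cell division genes Pclaf (0.485), Top2a (0.520), Birc5 (0.542), Hist1h1b (0.547) and Ube2c (0.573). With clusters matched, both ends were closer to 1: Bach2 was at 1.28, Dnah14 at 1.27, Cd274 at 1.20, Atp8a2 at 1.16 and Ednra at 1.26, and the division genes at 0.878 to 0.950. The like split by Tph1 could not be made, with 4 cells on its empty side.

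The relation was graded. Hdc averaged 5.32 UMIs (SD over cells 5.50) in cells with 0 Slc6a4 UMIs, 6.21 (5.83) with 1, 7.43 (6.21) with 2 and 7.93 (6.34) with 3 or more. The clusters of these cells alone would give 5.55, 6.00, 6.38 and 6.66 UMIs. The steps were smaller than the spread between cells. Tph1 averaged 15.9, 16.5, 17.0 and 16.9 UMIs and Slc18a2 2.68, 2.84, 2.98 and 3.11 UMIs over the same bins.

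**Figure D5:**
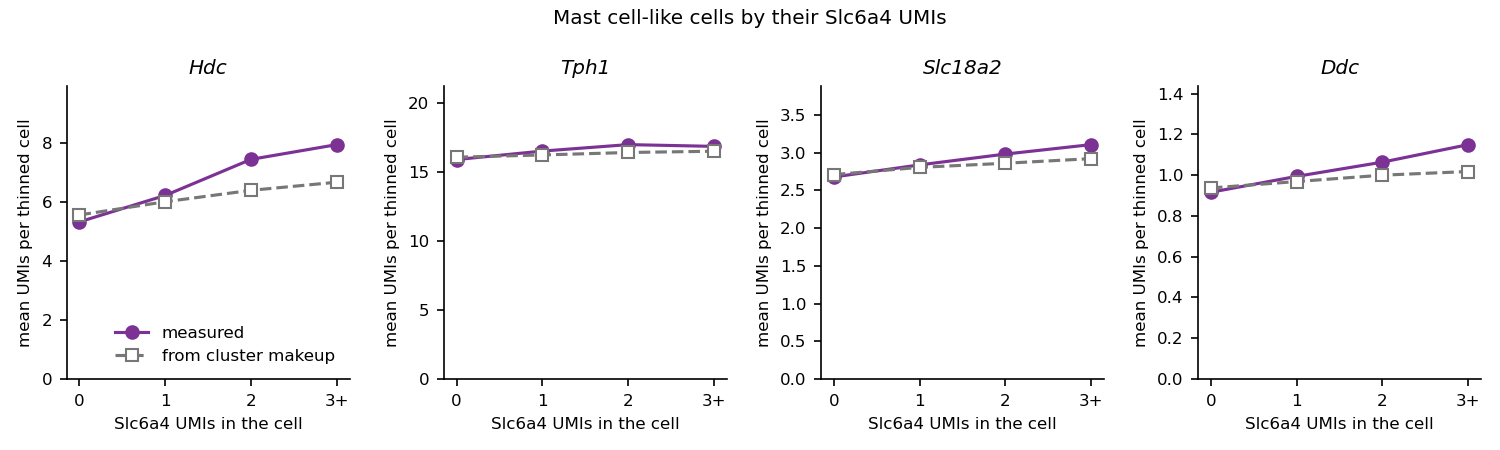
Mean UMIs per thinned mast cell-like cell (linear axes from 0) of Hdc, Tph1, Slc18a2 and Ddc in cells with 0, 1, 2 and 3 or more Slc6a4 UMIs (filled circles), beside the mean that the cells' clusters alone would give (open squares). Hdc goes from 5.32 to 7.93 UMIs where the clusters give 5.55 to 6.66, and Tph1 from 15.9 to 16.9.

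Genes with patterns most like the members were taken by Pearson correlation of log2(CPM + 1) over the 8 clusters of at least 100 cells. These points share 1 library and differ in depth and in mast cell RNA, and 8 points give high values easily: of 8504 genes, 3.01% exceeded 0.9 with Hdc and 6.72% with Tph1. For Hdc the highest were Adipor1 (0.983), Gm15675 (0.981), Rfx7 (0.978), Gm20342 (0.978) and Tmem154 (0.977). For Tph1 they were Gpr141 (0.996), Serpinb1a (0.994), Lat (0.994), Gna14 (0.994) and Runx3 (0.994). For Slc6a4 they were Gnaz (0.987), Fam32a (0.985), Ubl7 (0.980), Padi2 (0.980) and Crot (0.979). For Slc18a2 they were Zmat4 (0.997), Cd200r3 (0.996), Cnot6l (0.995), Cish (0.992) and Vwa5a (0.991). Among the members themselves, Hdc and Slc18a2 had 0.956 over these clusters and 0.923 over the 9 finer mast cell-like clusters, whereas Hdc and Tph1 had 0.737 and 0.302, and Slc18a2 and Tph1 0.863 and -0.0053.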

How the data were processed

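Single-cell counts came from 1 droplet library, and the library of sample tags (MULTI-seq, which marks cells with DNA barcodes) was not analysed here on its own. The deposited matrix holds counts of UMIs per gene and barcode, written by Cell Ranger 7.0.0 per the file headers. The submitters' processing notes name STAR, R 4.1.3, Seurat 4.1.1 and the build mm10, with no role or order, and the counting of introns and strand is not given in the sources used here.

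Barcodes were kept from 500 genes and 1000 UMIs upward when mitochondrial UMIs made up 10% or less (33964 of 34813), and 3209 doublets called by Scrublet in scanpy 1.11.5 were removed. Scrublet's threshold lay above most simulated doublets, of which 37.1% were called, so doublets remain. Cells were clustered by the Leiden method (leidenalg 0.10.2, resolution 0.5, 2000 variable genes, 30 components, 15 neighbours) with 371 genes left out: the amine, pathway, marker, cell cycle, mitochondrial and ribosomal genes. A cluster was named when more than 50% of a list and at least 3 of its markers stood at 50 CPM or more and 4-fold above the cluster where they were lowest. Levels are CPM of summed counts with exact Poisson 95% intervals, shares have exact binomial (Clopper-Pearson) intervals and ratios exact conditional ones, computed with scipy 1.17.1, and all cover counting error only. Cells were thinned to 6000 UMIs for shares, phases and joint detection. A difference was called at 2-fold with at least 20 CPM in either group. Counts from the 3′ side were not compared between genes.

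All 7 genes are named, then genes of the pathway list past 2-fold or at a step without a member, the 5 genes most like Hdc, Tph1, Slc6a4 and Slc18a2, and the 5 highest and 5 lowest between cells with and without a Slc6a4 UMI. The genes and lists were chosen with earlier results of these data known. Alternatives were other cell filters, doublets kept, other resolutions, cells with 1 tag, other detection rules and no thinning. The split by sex-linked transcripts, the count of the shallow cluster as mast cell-like and the 4 bins by mast cell markers were chosen after seeing the data. The calculations were tested on simulated data.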

Additional observations from a re-analysis of the deposited data

How the results depend on the processing

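With called doublets kept, 2 of 7 genes were past 2-fold higher in mast cell-like than macrophage-like cells, in place of 6. The share of all genes past 2-fold with doublets kept is not given here. The count past 2-fold between dividing and other mast cell-like cells was 2 in place of 1 with at most 5% mitochondrial UMIs and in cells with Y-linked UMIs and no Xist. The count above the marker range in fibroblast-like cells was 5 in cells with exactly 1 tag, 5 in cells with Y-linked UMIs and no Xist and 1 in cells with Xist alone, in place of 2. In macrophage-like cells it was 2 with Y-linked UMIs and no Xist, in place of 4. The joint detection ratio of Hdc, Tph1 and Slc6a4 was 1.15 with at least 2 UMIs required and 1.01 without thinning. The Hdc ratio between cells with and without Slc6a4, 1.24, was 1.22 in cells with 1 tag, 1.37 with at least 2 UMIs, 1.09 without thinning, 1.55 with Y-linked UMIs and no Xist, 1.17 with Xist alone and 1.14 within clusters. For Slc18a2 this ratio reversed to 0.967 without thinning. At a fold of 4, 0 pathway genes were higher in mast cell-like than macrophage-like cells and 2 than fibroblast-like cells, beside 0.03% and 6.92% of all genes. With at least 5 CPM 5 were lower than in macrophage-like cells, beside 17.9% of all genes. The cause of these changes was not tested.

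Of the main values 82 of 100 alternatives stayed within their limits, which let a count of genes change from 6 to 5 or from 3 to 4. Among the values of single genes and pairs, 362 alternatives stayed within their limits, 189 moved and 1 reversed. The Tph1 ratio of mast cell-like over macrophage-like cells ranged from 1.98 to 5.36, the Hdc ratio between mast cell-like clusters from 2.87 (called doublets kept) to 5.50, that of Slc6a4 from 2.35 to 4.61, and the Hdc ratio of dividing over other cells from 0.348 to 0.435. One library gives no estimate of variation between animals or cultures. No paired analysis was possible because the series has 1 library of cells. At 6000 UMIs per cell, a gene at the level of Slc6a4 is missed in many cells that may carry it, so shares are those of cells with a UMI.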

Other observations

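Tryptophan, the substrate of Tph1, can also enter the kynurenine route, and the genes of that route were close to empty in mast cell-like cells. Ido1 had 1 UMI there, Kynu 8, Ido2 9 and Tdo2 21. Kynu was at 5.34 CPM in macrophage-like cells. Aldh2, which oxidises the aldehydes that monoamine oxidases leave, was at 192, 196 and 110.3 CPM in the mast cell-like, the macrophage-like and the fibroblast-like class, and Qdpr, which regenerates tetrahydrobiopterin, at 41.9, 33.0 and 31.3 CPM.

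Mast cell-like cells also differed by tag. Hdc was at 806 CPM (803–810) in the 15803 cells with the Cafum tag alone and at 1059 CPM (1051–1068) in the 5459 cells without a tag. Slc6a4 was at 66.1 CPM (65.0–67.1) and 86.7 CPM (84.3–89.3) in the same cells, and Tph1 at 2689 CPM and 2664 CPM. Cells of clusters 0 and 1, where Hdc was highest, more often had no tag (32.6% and 24.0%) than those of clusters 2 and 5 (20.6% and 6.59%), and the part of this in the difference was not tested.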
